A study of Mus musculus with 24 samples.

Results

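The insulin-like growth factor (IGF) system was followed in 10 genes, namely the ligands Igf1 and Igf2, the receptors Igf1r and Igf2r, and the binding proteins Igfbp2 to Igfbp7. All 28 probe sets that the platform annotation assigns to one of these symbols alone were taken, out of 45037 probe sets that were tested and 18193 genes with a symbol. A probe set is a group of short probes on the array that together give 1 signal for a transcript. Of 24 mouse arrays in 8 groups of 3, batch 1 held untransduced and MyoD-transduced cells of both kinds, P19 cells and mouse embryonic fibroblasts (MEFs). Batch 2 had MEFs, with or without the NeuroD2 label, and batch 3 had P19 cells, with or without NeuroD2. P19 is a pluripotent mouse embryonal carcinoma line, kept in MEMα. The MEFs came from Myod-/-/Myf5-/- mice and were grown in DMEM with 10% FBS, so that the MEF controls carry the same deletions as the transduced MEFs.

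The factors were delivered by lentivirus in medium with 8 µg/ml polybrene, which was replaced after 24 hours, and the controls were untransduced. P19 cells were collected at 72 hours. MEFs with MyoD alone were stated to have moved, at 48 hours, to a differentiation medium of 1% horse serum with insulin and transferrin at 10 µg/mL each, and the MEF harvest followed 36 to 40 hours after that change. For MEFs labelled NeuroD2 and for the controls, the sources used here do not state the medium or harvest time. Virus, medium and factor therefore cannot be told apart in these comparisons, and insulin is itself a hormone that can signal through the receptors of this system. No label states that the 3 replicates of a group were cultured separately, and p-values here therefore measure the spread between these arrays, which may be technical.

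IGF1 and IGF2 are secreted growth factors that signal through the type 1 receptor, a tyrosine kinase, to the PI3K-AKT and MAPK pathways. The type 2 receptor, the cation-independent mannose 6-phosphate receptor, takes up IGF2 and delivers it to lysosomes, and the binding proteins hold the ligands outside the cell and can block or prolong their action. In skeletal muscle the system is known for supporting myoblast survival, differentiation and fibre growth, and IGF2 made by differentiating myoblasts acts back on the same cells. Igf2 and Igf2r are imprinted in the mouse.

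MyoD, which starts the skeletal muscle programme, and NeuroD2, a related neuronal factor, are basic helix-loop-helix proteins that bind E-boxes (CANNTG, which reads the same on both strands). Promoter windows of 300 bases, 250 before the listed start and 50 after it, were taken from RefSeq (build GRCm38.p6), and all 10 genes had at least 1, with 14 listed starts in total. The 250 bases before the start are shown for the 4 genes with 1 listed start whose brightest probe set rose with a factor, 5′ to 3′ on the strand of the gene, with each E-box in capitals. Igfbp5 lies at chr1:72874866-72875115 on the minus strand, Igf1 at chr10:87860861-87861110 on the plus strand, Igfbp3 at chr11:7213924-7214173 on the minus strand and Igfbp4 at chr11:99040994-99041243 on the plus strand.
Igfbp5: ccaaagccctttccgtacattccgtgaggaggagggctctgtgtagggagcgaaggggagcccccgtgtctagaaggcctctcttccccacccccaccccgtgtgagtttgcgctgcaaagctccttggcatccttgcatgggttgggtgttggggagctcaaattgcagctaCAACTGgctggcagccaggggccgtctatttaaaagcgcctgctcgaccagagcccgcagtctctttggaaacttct
Igf1: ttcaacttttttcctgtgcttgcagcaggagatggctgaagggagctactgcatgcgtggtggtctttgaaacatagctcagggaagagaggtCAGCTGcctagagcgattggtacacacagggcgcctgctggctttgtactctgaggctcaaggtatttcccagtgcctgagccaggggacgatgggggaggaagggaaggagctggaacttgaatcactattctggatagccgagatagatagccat
Igfbp3: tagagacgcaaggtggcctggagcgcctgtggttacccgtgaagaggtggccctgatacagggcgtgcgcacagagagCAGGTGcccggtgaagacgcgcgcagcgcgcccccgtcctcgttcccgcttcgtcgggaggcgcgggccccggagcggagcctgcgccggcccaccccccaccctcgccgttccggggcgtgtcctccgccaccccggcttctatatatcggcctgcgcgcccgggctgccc
Igfbp4: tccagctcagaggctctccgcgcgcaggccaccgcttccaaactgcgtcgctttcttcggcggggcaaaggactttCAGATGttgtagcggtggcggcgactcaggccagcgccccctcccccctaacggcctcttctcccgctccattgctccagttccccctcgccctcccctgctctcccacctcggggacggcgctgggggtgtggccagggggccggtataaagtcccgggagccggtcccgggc

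Each of these windows held 1 E-box before the start. Counting the last base before the start as -1, the motif began at -77 in Igfbp5 (CAACTG), at -157 in Igf1 (CAGCTG), at -172 in Igfbp3 (CAGGTG) and at -174 in Igfbp4 (CAGATG). A further CAGATG began at -1 of Igfbp3 and ran past the printed bases. An E-box of any kind occurred in 10 of the 14 member windows and in 72.3% of all 32851 RefSeq promoter windows of the same length. CAGCTG, also its own reverse complement, was present in 16.3% of all windows. CAGGTG on either strand (CACCTG on the other) was present in 20.2%, and CAGATG on either strand (CATCTG on the other) in 17.2%. A match is a run of letters and not a measured binding site.

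The arrays bear on every value below. P19 control replicate 2 of batch 1 stood apart from the other 23 arrays, with a mean correlation of 0.916 with its own group against 0.956 or more elsewhere. P19 control replicate 1 of batch 3 stood apart from its group in Igf2, Igf1r, Igf2r, Igfbp3, Igfbp5 and Igfbp7. Over all probe sets it stood close to its group, with a mean correlation of 0.986 against 0.991 for replicates 2 and 3. It was singled out by these genes, so leaving it out narrows the spread of the same probe sets. Calls gained that way are not separate support. Leaving out both arrays was chosen after the data were seen. Because all arrays share 1 estimate of the spread, leaving out either of these P19 control arrays can change a call in any comparison. The transduced genes were checked first: the Myod1 signal (1418420_at) was 3.94 higher on the log2 scale in P19 cells with MyoD (limma, adjusted p = 4.14e-14) and 5.55 higher in MEFs with MyoD (adjusted p = 3.78e-18). The Neurod2 signal (1418995_at) was 1.70 higher in P19 cells with NeuroD2 (adjusted p = 2.17e-06). None of the 3 Neurod2 probe sets was called in the MEFs labelled NeuroD2 (-0.06, 0.21 and -0.12), so those arrays are named by their label throughout. Whether these probes lie in the transduced sequence was not tested. Of 9 skeletal muscle markers, 9 were higher in MEFs with MyoD, 5 in P19 cells with MyoD, 1 (Myh3, 0.96) in P19 cells with NeuroD2 and 1 (Mymk) in MEFs labelled NeuroD2. All 8 neuron markers were higher in P19 cells with NeuroD2, against 1 (Tubb3) in MEFs labelled NeuroD2 and 1 (Map2, 1.03) in MEFs with MyoD. Without P19 control replicate 1 of batch 3, 6 of the 8 were called higher in P19 cells with NeuroD2.

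In MEFs with MyoD, 14 of the 28 probe sets passed the test (adjusted p under 0.05 over all 45037 probe sets), 11 higher and 3 lower, against 19.7% of all probe sets called there, 8.68% higher and 11.1% lower. In MEFs labelled NeuroD2, 9 passed, all higher, against 9.65% of all called, 5.22% higher and 4.43% lower. In P19 cells with NeuroD2, 8 passed, 7 higher and 1 lower, against 6.12% of all called, 4.07% higher and 2.05% lower. In P19 cells with MyoD, 3 passed, all higher, against 2.08% of all called, 1.7% higher and 0.384% lower. Probe sets of 1 gene are repeated readings of it. The 9 in MEFs labelled NeuroD2 were 4 of Igf1, 3 of Igfbp4 and 2 of Igfbp5. In P19 cells with NeuroD2, 6 of the 8 were of Igfbp4. By brightest probe set, 6 of 10 genes were called in MEFs with MyoD (24.4% of all genes) and 3 in MEFs labelled NeuroD2 (11.9%). In P19 cells 2 of 10 were called with NeuroD2 (7.82%) and 2 with MyoD (2.51%). Igfbp5 was the gene called in all 4 comparisons on 1452114_s_at, its brighter probe set by the mean over all 24 arrays. That mean includes the transduced arrays, so the choice is not independent of the rise. Its other probe set, 1422313_a_at, was the brighter in every control group and was not called in P19 cells. The median log2 difference of the 28 probe sets was 0.50 in MEFs with MyoD, 0.36 in MEFs labelled NeuroD2, 0.16 in P19 cells with NeuroD2 and 0.14 in P19 cells with MyoD. The median over all probe sets tested was 0.003, -0.012, -0.033 and 0.008 in the same order.

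**Figure D1:**
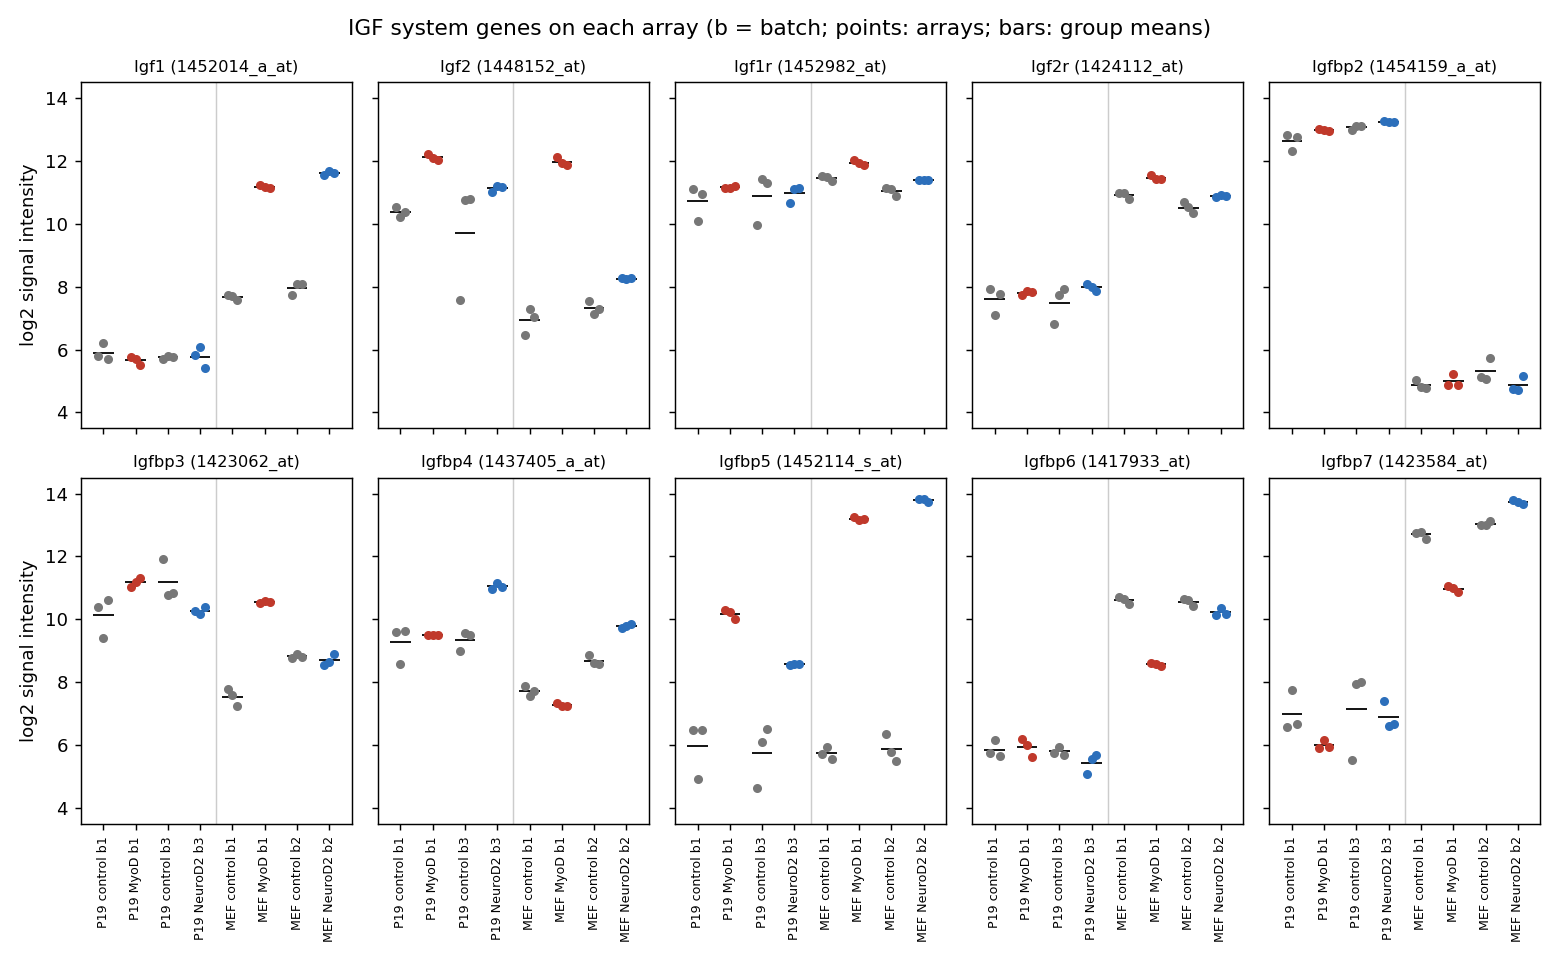
Log2 signal intensity of the probe set with the highest mean for each of the 10 genes, on every array. Points are arrays, black bars are means of 3, grey is untransduced, red MyoD and blue NeuroD2, with P19 groups left of the vertical line and MEF groups right of it. Igfbp5 stands higher under either factor label in both kinds of cell, Igf1 in MEFs alone, and Igfbp2 separates all P19 arrays (12.31 or more) from all MEF arrays (5.72 or less).

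Igf1, the ligand that mediates much of growth hormone action and is also made locally by muscle, was higher under both factor labels in MEFs and was not called in P19 cells. Its 1452014_a_at signal was 7.75, 7.69 and 7.59 in the MEF controls of batch 1 and 11.23, 11.17 and 11.15 in the MEFs with MyoD. In batch 2 it was 7.75, 8.09 and 8.07 in the controls and 11.54, 11.69 and 11.60 in the MEFs labelled NeuroD2. Every transduced MEF array was thus above every control, and the groups did not overlap. The differences were 3.51 (SE 0.15, 11.4-fold, n = 3 against 3, limma adjusted p = 1.22e-13) with MyoD and 3.64 (SE 0.15, 12.5-fold, adjusted p = 3.06e-13) in the MEFs labelled NeuroD2.

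All 4 Igf1 probe sets gave this picture, with differences from 3.33 to 4.06 with MyoD and from 3.33 to 3.70 in the MEFs labelled NeuroD2. Their signals correlated over the 24 arrays at 0.98 to 1.00. The effects under the 2 factor labels in MEFs, each taken against its own controls, differed by -0.13 on 1452014_a_at (95% interval -0.56 to 0.30, adjusted p = 0.848) and by 0.36 at most. In the 12 P19 arrays Igf1 lay between 5.40 and 6.21, around the median of all values (5.81). The P19 differences were -0.25 with MyoD (95% interval -0.55 to 0.06, adjusted p = 0.248) and 0.0017 with NeuroD2 (-0.30 to 0.31, adjusted p = 0.999). None of the 4 probe sets was called in P19 cells, and the difference between the effects in MEFs and in P19 cells was called for all 4 under either factor label. In bulk RNA, as measured here throughout, a change in the number of cells expressing a gene and a change in RNA per cell cannot be told apart.

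Igf2, the fetal IGF ligand and an early product of differentiating myoblasts, was higher in MEFs with MyoD. Its 1448152_at signal was 6.47, 7.28 and 7.03 in the MEF controls of batch 1 and 12.13, 11.93 and 11.86 with MyoD. The MyoD arrays reached the level of the P19 cells with MyoD (12.23, 12.10 and 12.03), and these were the 2 highest groups of the 8 and overlapped each other. The difference in MEFs was 5.05 (SE 0.50, 33.1-fold, limma adjusted p = 1.31e-07). In batch 2 the controls read 7.54, 7.14 and 7.28 and the MEFs labelled NeuroD2 8.26, 8.25 and 8.26. Those groups did not overlap, but the difference of 0.93 (95% interval -0.12 to 1.99, adjusted p = 0.376) was not called with all arrays in the fit. It was called without P19 control replicate 1 of batch 3 (adjusted p = 0.000233), and over all alternatives the adjusted p ran from 3.58e-05 to 0.6. The MyoD effect in MEFs exceeded that in the MEFs labelled NeuroD2 by 4.11 (95% interval 2.62 to 5.60, adjusted p = 0.000264).

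Igf2 was already bright in P19 cells. The 1448152_at signal was 10.54, 10.23 and 10.39 in the controls of batch 1, below all 3 arrays with MyoD. The difference of 1.73 (SE 0.50, 3.32-fold) had an adjusted p of 0.0803 with all arrays in the fit. Leaving out P19 control replicate 1 of batch 3, which belongs to neither group but enters the shared spread with an Igf2 signal of 7.57 against 10.76 and 10.78 in its own group, left the difference at 1.73 and gave an adjusted p of 8.57e-07. It was also called without control replicate 1 or replicate 3 of batch 1 (adjusted p = 0.0339 and 0.03). The second probe set, 1415931_at, was called in P19 cells with MyoD (0.63, SE 0.12, adjusted p = 0.00854) and in MEFs with MyoD (1.48, SE 0.12, adjusted p = 9.99e-09). With NeuroD2 the P19 arrays read 11.01, 11.19 and 11.18, and the difference of 1.43 (adjusted p = 0.121) was 0.36 (adjusted p = 0.358) without the control at 7.57, and 1.95 or 1.96 (adjusted p = 0.0289 and 0.026) without either of the other 2 controls. The 2 probe sets correlated over the arrays at 0.83, and the dimmer one stayed between 4.11 and 6.05.

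Few receptor probe sets were called under either factor label. Igf1r, the signalling receptor of both ligands, gave on 1452982_at 11.52, 11.49 and 11.37 in the MEF controls of batch 1 and 12.02, 11.92 and 11.88 with MyoD. The groups did not overlap and the difference was 0.48 (95% interval -0.10 to 1.06, limma adjusted p = 0.307). It was called when the 2 P19 control arrays that stand apart were left out (adjusted p = 0.00065). Over its 5 probe sets the differences ran from 0.34 to 0.62 in MEFs with MyoD, and 1452108_at alone was called (0.62, adjusted p = 0.0206). None of the 5 was called in the other 3 comparisons, where they ran from 0.14 to 0.34 in MEFs labelled NeuroD2, from -0.12 to 0.90 in P19 cells with MyoD and from -0.05 to 0.09 in P19 cells with NeuroD2. The P19 values include an array at 6.16 on 1428967_at, P19 control replicate 2 of batch 1, beside 8.28 and 8.22 in its group. On 1452982_at the batch 3 controls read 9.95, 11.42 and 11.31, replicate 1 being the low one. Without it the P19 difference with NeuroD2 changed from 0.09 to -0.39 (adjusted p = 0.442), and without both P19 control arrays that stand apart the -0.39 was called (adjusted p = 0.0216), as was the 0.34 in MEFs labelled NeuroD2 (adjusted p = 0.0166). The difference of 0.45 in P19 cells with MyoD was 0.13 (adjusted p = 0.948) without control replicate 2 of batch 1. Correlations between the 5 probe sets ranged from 0.08 to 0.76.

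Igf2r, the clearance receptor of IGF2, separated the kinds of cell and was not called under either factor label when all arrays were fitted. On 1424112_at the P19 controls of batch 1 read 7.93, 7.10 and 7.77 and the MEF controls of that batch 10.97, 10.97 and 10.80. The MEF controls were 3.31 higher (SE 0.21, 9.91-fold, limma adjusted p = 6.04e-11), and 1424111_at gave 3.51 (adjusted p = 1.45e-08). The MEFs with MyoD read 11.56, 11.42 and 11.41, a difference of 0.55 (95% interval 0.11 to 0.99, adjusted p = 0.0805). Without P19 control replicate 2 of batch 1 the same 0.55 was called (adjusted p = 0.0182), as it was without P19 control replicate 1 of batch 3 (adjusted p = 0.0114). The other differences on this probe set were 0.21 in P19 cells with MyoD, 0.50 in P19 cells with NeuroD2 and 0.37 in MEFs labelled NeuroD2, none of them called. Without control replicate 2 of batch 1, the first was -0.04 (adjusted p = 0.983). The second was 0.16 (adjusted p = 0.879) without control replicate 1 of batch 3, which read 6.80 against 7.72 and 7.91. The 0.37 in MEFs labelled NeuroD2 was called without both arrays (adjusted p = 0.00323).

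**Figure D2:**
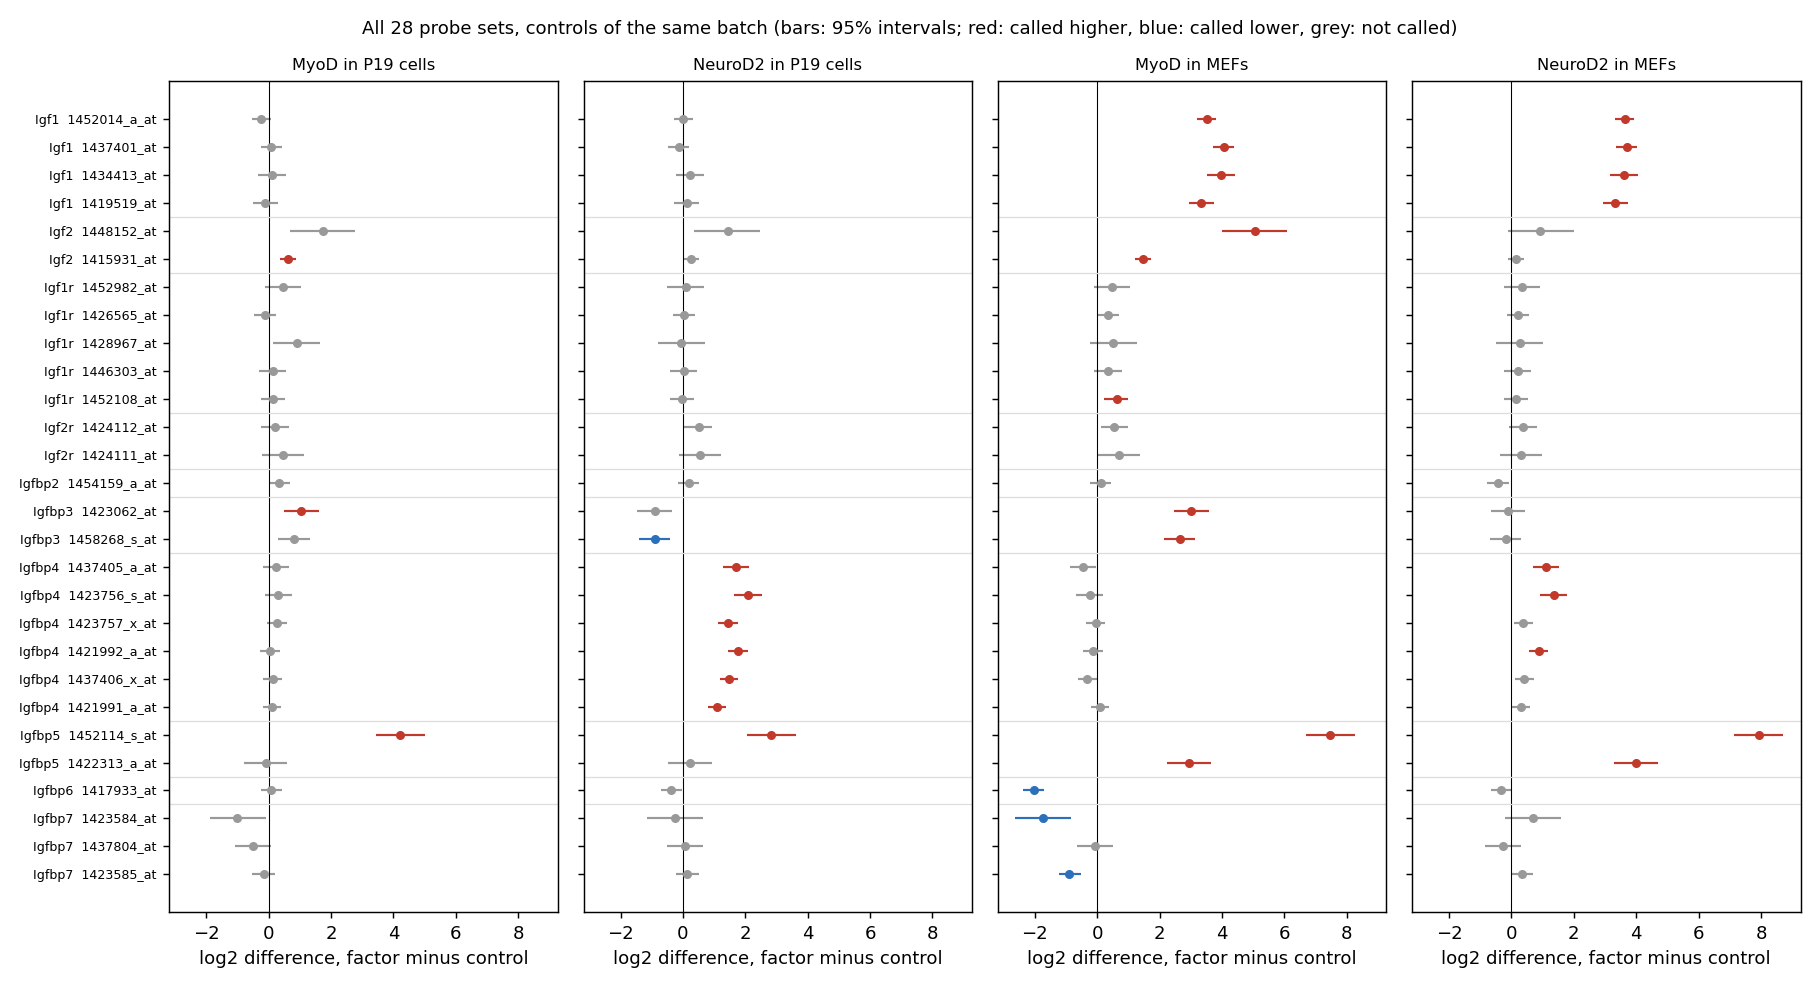
Log2 difference between each factor label and the untransduced controls of its batch for all 28 probe sets, with 95% intervals from limma, in 4 panels. Red and blue points passed the test as higher and lower, grey ones did not. The 4 probe sets of Igf1 lie together within each panel, whereas the 2 of Igfbp5 lie apart, at 4.22 and -0.10 in P19 cells with MyoD.

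Igfbp5, a binding protein of muscle and bone that binds both IGFs and the extracellular matrix, had the largest rise of the 10 genes in each of the 4 comparisons on its brighter probe set, 1452114_s_at. The MEF controls read 5.70, 5.94 and 5.57 in batch 1 and 6.34, 5.78 and 5.48 in batch 2, around the median of all values. The MEFs with MyoD read 13.24, 13.17 and 13.19, and the MEFs labelled NeuroD2 13.81, 13.82 and 13.73. No transduced array came near a control. The differences were 7.46 (SE 0.38, 176-fold, limma adjusted p = 2.88e-12) and 7.92 (SE 0.38, 242-fold, adjusted p = 4.26e-12), and these effects differed by -0.45 (95% interval -1.57 to 0.66, adjusted p = 0.756).

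In P19 cells the same probe set rose from 6.49, 4.93 and 6.47 to 10.28, 10.23 and 10.02 with MyoD. With NeuroD2 it rose from 4.63, 6.08 and 6.52 to 8.55, 8.58 and 8.59. Each control group had 1 low array, and no control reached the transduced arrays. The differences were 4.22 (SE 0.38, 18.6-fold, adjusted p = 6.42e-07) with MyoD and 2.83 (SE 0.38, 7.11-fold, adjusted p = 3.02e-05) with NeuroD2. Without the low control of its batch the first was 3.70 (adjusted p = 2.32e-07) and the second 2.27 (adjusted p = 9.67e-05). With the 6 arrays of the comparison fitted alone, the MyoD difference had an adjusted p of 0.0517. The effect was larger in MEFs than in P19 cells by 3.25 with MyoD (adjusted p = 0.000162) and by 5.09 between the NeuroD2 labels (adjusted p = 9.17e-07).

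The other Igfbp5 probe set, 1422313_a_at, was also higher in both MEF comparisons, by less, and was not called in P19 cells. It rose by 2.94 in MEFs with MyoD (adjusted p = 7.92e-07) and by 3.99 in MEFs labelled NeuroD2 (adjusted p = 2.23e-08). In P19 cells it read 6.99, 9.05 and 6.90 in the controls of batch 1 and 7.53, 7.61 and 7.52 with MyoD. The control at 9.05 is replicate 2, the array that stood apart, where 1452114_s_at was low at 4.93, so the 2 probe sets deviated in opposite directions on 1 array. The difference was -0.10 (95% interval -0.79 to 0.60, adjusted p = 0.856) with that array and 0.61 (adjusted p = 0.00175) without it, beside the 3.70 of 1452114_s_at on the same arrays. With NeuroD2 the P19 difference on 1422313_a_at was 0.23 (95% interval -0.47 to 0.92, adjusted p = 0.904). The identifier ending _s_at marks a probe set that can match transcripts of more than 1 gene, and which transcripts each set matches was not tested. Over the 24 arrays they correlated at 0.84.

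**Figure D3:**
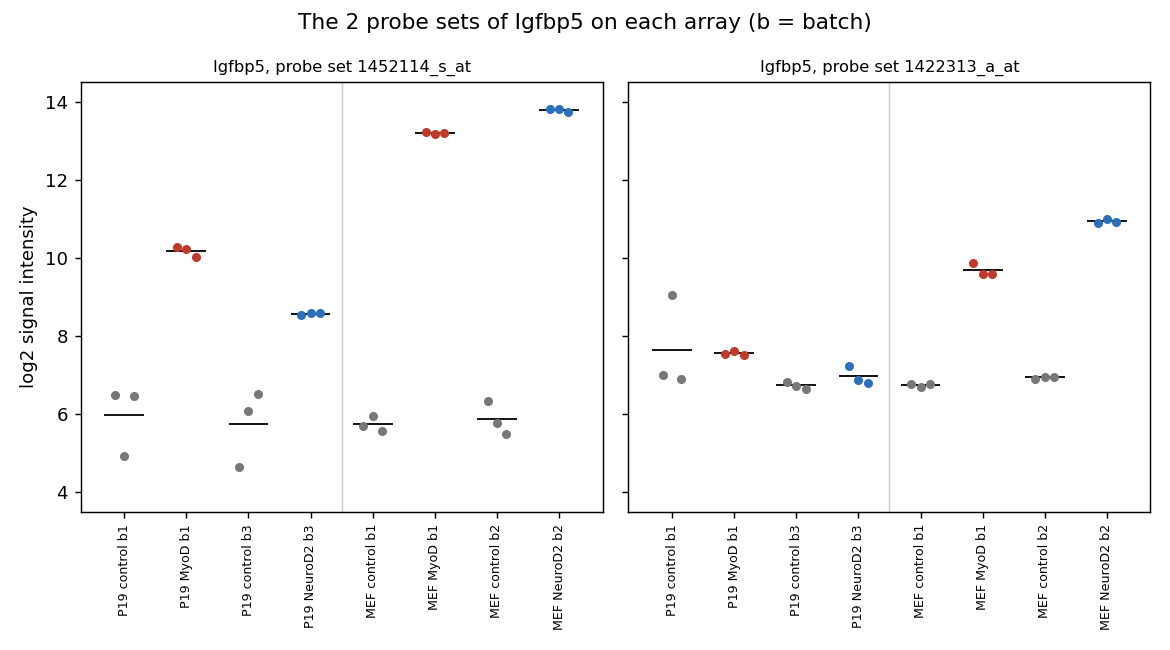
Log2 signal intensity of the 2 Igfbp5 probe sets on every array, with black bars for the means of 3 arrays and grey, red and blue for untransduced, MyoD and NeuroD2. Both sets stand higher in the transduced MEFs. In the P19 controls of batch 1, replicate 2 is the low point of 1452114_s_at (4.93) and the high point of 1422313_a_at (9.05).

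Igfbp3, the main carrier of IGFs in blood, was higher in MEFs with MyoD. The 1423062_at signal was 7.79, 7.58 and 7.24 in the controls of batch 1 and 10.51, 10.59 and 10.56 with MyoD, without overlap. The difference was 3.01 (SE 0.27, 8.08-fold, limma adjusted p = 2.29e-08), and 1458268_s_at gave 2.64 (adjusted p = 3.15e-08). In batch 2 the controls read 8.76, 8.89 and 8.80 and the MEFs labelled NeuroD2 8.56, 8.65 and 8.90, which overlapped, with a difference of -0.12 (95% interval -0.67 to 0.44, adjusted p = 0.934). The MyoD effect exceeded that in MEFs labelled NeuroD2 by 3.13 (adjusted p = 3.31e-06). The untransduced MEFs themselves differed between the batches by 1.28 (adjusted p = 0.00833) on this probe set and by 1.50 (adjusted p = 0.000738) on the other. Set against the controls of batch 2, the MyoD difference was 1.74 (adjusted p = 3.68e-05).

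In P19 cells the Igfbp3 differences depended on which control arrays were used. The batch 1 controls read 10.40, 9.40 and 10.60 and the MyoD arrays 11.01, 11.20 and 11.30. On 1458268_s_at the difference with MyoD was 0.81 and was not called with all arrays fitted. The difference of 1.04 on 1423062_at (SE 0.27, 2.05-fold, adjusted p = 0.0486) was not called without control replicate 2 (0.67, adjusted p = 0.169) and was -0.0018 against the controls of batch 3. Those controls read 11.93, 10.77 and 10.82, above batch 1 by 1.04 (adjusted p = 0.0172). With NeuroD2 the arrays read 10.26, 10.17 and 10.39, below all 3 controls of their batch. The difference was -0.90 (95% interval -1.46 to -0.34, adjusted p = 0.0526) on 1423062_at and -0.91 (adjusted p = 0.0243) on 1458268_s_at. The first was called without P19 control replicate 2 of batch 1 (adjusted p = 0.00371). Without the control at 11.93 it became -0.52 (adjusted p = 0.318), and against the controls of batch 1 it was 0.14 (adjusted p = 0.711). Without both control arrays that stand apart, the differences were 0.67 with MyoD (adjusted p = 0.00293) and -0.52 with NeuroD2 (adjusted p = 0.00724). The MyoD and NeuroD2 effects in P19 cells differed by 1.93 (95% interval 1.14 to 2.72, adjusted p = 0.00378) with all arrays, by 1.56 or 1.55 without either of the 2 and by 1.18 (0.80 to 1.57, adjusted p = 0.000153) without both.

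Igfbp4, a binding protein that restrains IGF action and is cleaved by the protease PAPP-A, rose with NeuroD2 in P19 cells. On 1437405_a_at the controls of batch 3 read 8.98, 9.56 and 9.51 and the NeuroD2 arrays 10.96, 11.15 and 11.02, without overlap. The difference was 1.70 (SE 0.20, 3.24-fold, limma adjusted p = 6.89e-06), and all 6 probe sets were called, from 1.10 to 2.09. Without the control at 8.98 it was 1.51 (adjusted p = 7.4e-05). None of the 6 was called in P19 cells with MyoD (0.04 to 0.31). The MyoD effect minus the NeuroD2 effect in P19 cells was called on all 6 probe sets and was -1.45 on 1437405_a_at (95% interval -2.04 to -0.86, adjusted p = 0.00371). All 6 identifiers carry _a_at, _s_at or _x_at endings, which mark sets able to match more than 1 transcript, and they correlated over the arrays at 0.88 to 0.97.

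In MEFs Igfbp4 was 8.87, 8.61 and 8.58 in the controls of batch 2 and 9.72, 9.80 and 9.86 under the NeuroD2 label. The arrays did not overlap, and the difference was 1.11 (SE 0.20, 2.16-fold, adjusted p = 0.000563). Of its 6 probe sets 3 were called (0.87 to 1.35), and the other 3 lay between 0.31 and 0.41. With MyoD none was called, from -0.45 to 0.09, but the -0.45 of 1437405_a_at was called without P19 control replicate 2 of batch 1 (adjusted p = 0.00501). The MEF controls also differed between batches, batch 2 being higher on 5 of 6 probe sets, by 0.96 on 1437405_a_at (adjusted p = 0.00792). Against the controls of batch 1 the difference under the NeuroD2 label was 2.07, and that of the MyoD arrays against batch 2 was -1.42 (adjusted p = 1.26e-05).

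Igfbp2, a binding protein abundant in fetal and embryonic cells, marked P19 cells. Its single probe set read 12.84, 12.31 and 12.76 in the P19 controls of batch 1 and 5.03, 4.82 and 4.79 in the MEF controls of that batch. The MEF controls were lower by far, with a difference of -7.76 (SE 0.16, 217-fold, limma adjusted p = 1.17e-18), the largest among the 10 genes between the kinds of cell. It was not called in any of the 4 comparisons with all arrays fitted, where the differences were 0.34 and 0.18 in P19 cells with MyoD and NeuroD2, 0.11 in MEFs with MyoD and -0.43 in MEFs labelled NeuroD2 (95% interval -0.77 to -0.09, adjusted p = 0.13). That last difference was called without P19 control replicate 2 of batch 1 (adjusted p = 0.0333). In the RefSeq gene table (GRCm38.p6) Igfbp2 is listed next to Igfbp5 on chromosome 1, and the neighbours thus gave different patterns over the 8 groups.

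Igfbp6, a binding protein with a preference for IGF2, was lower with MyoD in MEFs. It read 10.70, 10.63 and 10.48 in the controls of batch 1 and 8.60, 8.58 and 8.51 with MyoD, without overlap. The difference was -2.04 (SE 0.16, 4.11-fold lower, limma adjusted p = 3.46e-09). The MEFs labelled NeuroD2 read 10.13, 10.37 and 10.18 against 10.65, 10.60 and 10.42, a difference of -0.33 (95% interval -0.66 to 0.01, adjusted p = 0.301). Those groups did not overlap either. The difference was called in 1 of 34 alternatives, with array weights (-0.37, limma adjusted p = 0.00568). The MyoD effect minus that of the NeuroD2 label was -1.71 (adjusted p = 1.05e-05). In P19 cells Igfbp6 lay between 5.09 and 6.18 on all arrays, near the median of all values, and no difference was called.

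Igfbp7, a secreted relative of the IGF binding proteins with low affinity for IGFs, was also lower with MyoD in MEFs. The 1423584_at signal was 12.74, 12.79 and 12.56 in the controls and 11.06, 10.99 and 10.86 with MyoD. The difference was -1.73 (SE 0.43, 3.31-fold lower, limma adjusted p = 0.0051), and that of 1423585_at was -0.89 (adjusted p = 0.000514). The third probe set, 1437804_at, stayed near 7 on MEF arrays and gave -0.06 (95% interval -0.64 to 0.52, adjusted p = 0.966). The MEFs labelled NeuroD2 read 13.79, 13.74 and 13.67 against 13.00, 13.00 and 13.13, a difference of 0.69 (adjusted p = 0.488) that was called without the 2 P19 control arrays that stand apart (adjusted p = 0.000713). The MyoD effect minus that of the NeuroD2 label was -2.42 (95% interval -3.68 to -1.15, adjusted p = 0.00774). Beside Igfbp6 and Igfbp7, 9 of 11 fibroblast markers fell in MEFs with MyoD, their summed log2 signal lying at 136.9 to 138.8 in the controls and 116.0 to 117.6 with MyoD, while Lum, the lowest, averaged 4.66. Over the same arrays the summed signal of 9 muscle markers went from 47.3 to 48.4 up to 120.7 to 121.1. The part of these shifts in the results above was not tested.

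Igfbp7 in P19 cells depended on the controls. It read 6.56, 7.75 and 6.68 in the controls of batch 1 against 5.91, 6.16 and 5.93 with MyoD. The difference of -1.00 (95% interval -1.89 to -0.10) had an adjusted p of 0.158, and of 0.0213 without P19 control replicate 1 of batch 3. With NeuroD2 the arrays read 7.39, 6.62 and 6.67 against 5.53, 7.93 and 7.99. Without the control at 5.53 the difference changed from -0.26 (adjusted p = 0.924) to -1.06 (adjusted p = 0.0138).

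The untransduced cells differed in most of the system. Between MEF and P19 controls of batch 1, which also serve in the MyoD comparisons, 23 of 28 probe sets were called, 11 higher in MEFs and 12 lower, where 42.8% of all probe sets were called, 22.2% higher and 20.5% lower. Igf1, Igf2r, Igfbp6 and Igfbp7 were higher in MEFs, by 1.77, 3.31, 4.76 and 5.70 on their brightest probe sets. Igf2, Igfbp2, Igfbp3 and Igfbp4 were lower in MEFs, with differences of -3.46, -7.76, -2.60 and -1.54. Igf1r was called with 0.75 (adjusted p = 0.0363) and not without P19 control replicate 2 (0.43, adjusted p = 0.206), and was called again at 0.43 without both arrays (adjusted p = 0.00325). Igfbp5 did not differ past the test on 1452114_s_at (-0.23, 95% interval -1.01 to 0.56), but gave -0.74 (adjusted p = 0.000893) without both P19 control arrays that stand apart. Its 1422313_a_at was called lower in MEFs (-0.91, adjusted p = 0.0337) and was -0.20 (adjusted p = 0.131) without P19 control replicate 2. Pluripotency markers were lower in MEFs for 7 of 7 and fibroblast markers higher for 11 of 11. Among the P19 controls, Zfp42 was the dimmest pluripotency marker at 4.60.

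Between batches, the controls themselves differed in 7 of 28 probe sets in MEFs (3.4% of all called) and in 2 of 28 in P19 cells (11.9% of all called). These were the 2 Igfbp3 probe sets in both kinds of cell and 5 Igfbp4 probe sets in MEFs. For the other 8 genes no control difference between batches was called with all arrays fitted. Without both P19 control arrays that stand apart, 12 of 28 were called between the MEF batches, 8 of them higher in batch 2 and the rest lower. There 8924 of all 45037 probe sets were called. The lower ones belong to these other genes, since no Igfbp3 or Igfbp4 probe set was lower in MEF controls of batch 2. Where the effects of a factor were compared between kinds of cell, 12 of 28 probe sets differed for MyoD (16.4% of all called) and 10 for the NeuroD2 labels (8% of all called). Where MyoD was compared with the NeuroD2 label, each against its own controls, 11 differed in MEFs (14.6% of all called) and 8 in P19 cells (3.78% of all called). In P19 cells those 8 were the 6 probe sets of Igfbp4 and the 2 of Igfbp3.

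Beyond the 10 genes, 77 of 86 listed genes of the pathway were measured, by the brightest probe set of each. Over the brightest probe sets of all 18193 genes, 24.4% were called in MEFs with MyoD (10.4% higher, 14% lower) and 11.9% in MEFs labelled NeuroD2 (6.15% higher, 5.74% lower). In P19 cells the shares were 7.82% with NeuroD2 (4.92% higher, 2.89% lower) and 2.51% with MyoD (1.88% higher, 0.627% lower). The lists hold 8 to 22 genes, so that 1 gene shifts a share by several percent. Of 15 adaptors and inhibitors at the receptors, 2 were higher and 4 lower in MEFs with MyoD, and 1 higher and 3 lower in MEFs labelled NeuroD2, shares of 40% and 26.7% called. Grb14, an adaptor that dampens insulin receptor signalling, fell by 2.29 with MyoD (limma adjusted p = 6.39e-08) and fell by 1.52 under the NeuroD2 label (adjusted p = 3.8e-05). Socs3, an inhibitor of cytokine signalling, and the adaptor Shc1 fell by 1.00 and 0.94 with MyoD, and Socs1 fell by 0.83 under the NeuroD2 label, where the phosphatase gene Ptpn1 rose by 0.62. In P19 cells 2 of 15 fell with MyoD, with differences of -0.94 for Grb14 and -0.57 for Socs1, and 3 fell with NeuroD2. These were Grb10, an imprinted inhibitor of the receptors (-1.55, adjusted p = 0.000688), the docking protein gene Irs1 (-0.68) and Socs1 (-0.52).

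Of 22 genes of the PI3K-AKT-mTOR-FOXO branch, 6 were higher and 1 lower in MEFs with MyoD, 31.8% of the list. Akt2, the AKT form of insulin-responsive tissue, rose from 9.07 to 10.99, a difference of 1.91 (SE 0.12, adjusted p = 1.36e-10). Phlda1 rose by 1.38, and Pik3r1, a regulatory subunit of PI3K, fell by 0.99. In MEFs labelled NeuroD2, 2 were higher and 2 lower (18.2%): Pdpk1, the kinase that activates AKT, rose by 0.64, while Trib3, an AKT inhibitor, and Pik3r1 fell by 1.52 and 0.73. In P19 cells with NeuroD2, 3 were higher and 1 lower, among them the PI3K subunits Pik3r3 (2.29, adjusted p = 8.13e-05) and Pik3r1 (1.07) and, lower, Phlda3 (-0.76). With MyoD in P19 cells 1 was called, Foxo4, a transcription factor held back by AKT (0.51, adjusted p = 0.0343).

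Of 21 proteases and other carriers of the binding proteins, 4 were higher and 5 lower in MEFs with MyoD, and 3 higher and 5 lower in MEFs labelled NeuroD2, shares of 42.9% and 38.1%. Pappa, the protease that cleaves IGFBP4, fell from 7.82 to 5.42 with MyoD, a difference of -2.40 (SE 0.36, adjusted p = 3.65e-05). Stc2, which inhibits that protease, rose by 1.54 with MyoD and by 2.66 under the NeuroD2 label (adjusted p = 2.39e-08). Of the serine protease genes, Htra1 fell by 1.52 with MyoD and Htra3 rose by 2.99 under the NeuroD2 label. Ccn3, of a matrix protein family with an IGF-binding-protein-like domain, fell by 2.23 there. In P19 cells with NeuroD2, 1 was higher, Igfbpl1 (1.43), and 1 lower, Ccn2 (-0.80), and with MyoD limma called none, with 6 at an unadjusted p under 0.05.

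Of 11 IGF2 mRNA binding proteins and imprinted growth genes, 5 were higher and 3 lower in MEFs with MyoD, and 3 higher and 1 lower in MEFs labelled NeuroD2, shares of 72.7% and 36.4%. Mest rose from 5.18 to 10.72 with MyoD, a difference of 5.54 (SE 0.18, adjusted p = 3.01e-15), and from 5.47 to 11.96 under the NeuroD2 label, a difference of 6.48 (SE 0.18, adjusted p = 1.64e-15). Cdkn1c, the cyclin-dependent kinase inhibitor p57, rose by 4.58 with MyoD, and the zinc finger gene Plagl1 by 1.98 under the NeuroD2 label. Peg3 rose by 1.97 and 1.72 in the same comparisons and by 1.54 in P19 cells with NeuroD2, where Phlda2 fell by 0.74. In P19 cells with MyoD limma called none of the 11, with 1 at an unadjusted p under 0.05. None of the 8 insulin relatives measured was called by limma in any of the 4 comparisons, where 4, 1, 1 and 0 had an unadjusted p under 0.05 (P19 with MyoD, MEFs with MyoD, P19 with NeuroD2, MEFs labelled NeuroD2). The median differences of the 5 lists in MEFs with MyoD were -0.30, 0.24, -0.15, 0.09 and 0.05, in the order given, beside 0.003 over all probe sets.

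The pathway values also moved with the 2 P19 control arrays that stand apart. Without both, 12 of 15 adaptors, 14 of 22 genes of the PI3K branch, 14 of 21 proteases and carriers, 9 of 11 imprinted and RNA-binding genes and 1 of 8 insulin relatives were called in MEFs with MyoD, where the share over all genes was 42.9%. The counts were 12, 13, 11, 6 and 1 in MEFs labelled NeuroD2 (30.4% of all genes), 8, 10, 8, 4 and 0 in P19 cells with NeuroD2 (22%) and 4, 4, 4, 1 and 0 in P19 cells with MyoD (6.54%), in the same order. In the P19 comparisons the named genes kept their direction without either array or both. Without control replicate 2 of batch 1, Foxo4 with MyoD was not called (0.33, limma adjusted p = 0.078) and Grb14 was -1.28. Without control replicate 1 of batch 3, Ccn2 (-0.73, adjusted p = 0.138) and Phlda2 (-0.61, adjusted p = 0.0716) were not called with NeuroD2, while Peg3 changed from 1.54 to 0.84 and Phlda3 from -0.76 to -1.14, both still called.

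**Figure D4:**
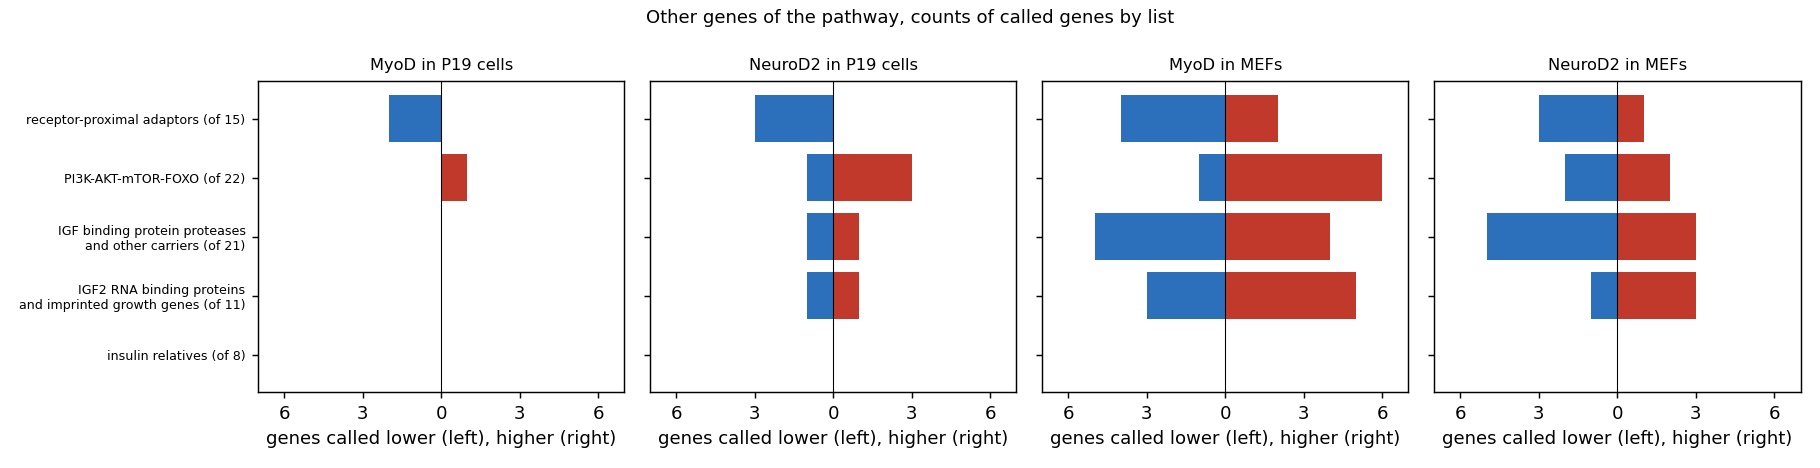
Number of other pathway genes that passed the test as higher (red, to the right) or lower (blue, to the left) in each comparison, by list, with the number of genes measured in brackets. Most calls are in the 2 MEF panels, none is in the insulin relatives, and MyoD in P19 cells has 3 in all, in the order of the share of all genes called (24.4% and 11.9% in MEFs with MyoD and labelled NeuroD2, 7.82% and 2.51% in P19 cells with NeuroD2 and MyoD).

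By correlation of the 8 group means over 13140 genes with a group mean above the median of all values, the genes most like Igf1 were Emc7, H2bc22 and Eif4a2 (r = 0.986, 0.982 and 0.980). Those most like Igf2 were Socs7, Gins3 and Uqcrfs1 (0.979, 0.973 and 0.972), and those most like Igfbp5 were Btbd11, Acyp1 and Bcl7a (0.971, 0.960 and 0.956). For Igfbp3 they were Tmem189, Spata2 and Prkaa2 (0.970, 0.963 and 0.962). Igfbp6 was followed by Ephx1, Ly96 and Cyp2j6 (0.999, 0.998 and 0.997), and Igfbp7 by St3gal1, Col1a1 and Emilin1 (0.998, 0.996 and 0.996). The 8 points share cells and batches, so these coefficients describe the pattern over the groups and carry no test.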

How the data were processed

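Total RNA was hybridised to Affymetrix mouse arrays, 1 per sample, after One-Cycle labelling with biotin, per the labels' protocols. The authors deposited 1 log2 intensity per probe set and array. No source used here states how background, normalization and summary were handled, and the submitters' processing notes name limma without a version. Quartiles of 23 arrays match closely (lower 4.47 to 4.58, upper 8.23 to 8.39), and those of P19 control replicate 2 of batch 1 do not (4.79 and 7.63), and how that array was scaled is unknown. The table has no detection calls, and low signals are compressed toward background, which understates differences of dim genes. Groups, batches and replicate numbers come from the sample titles, because the characteristics describe MyoD samples as neuronally differentiated.

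Of 45101 probe sets, 64 Affymetrix controls were left out. Symbols came from the platform annotation: 34945 probe sets had 1, 932 several and 9160 none, and 1 probe set naming a member and another gene was left out. Group means were fitted to the 24 arrays jointly, by limma 3.58.1 under R 4.3.3 (16 residual and 3.66 prior degrees of freedom), without further scaling. Tests were two-sided, with Benjamini-Hochberg adjustment over 45037 probe sets. "Rose", "fell" and "called" mean an adjusted p under 0.05, and intervals are at 95% without adjustment. A gene's main or brightest probe set has the highest mean over all arrays, transduced ones included. Levels were compared only within a probe set. The members and lists were chosen with earlier results of these data known. Each list names up to 3 called genes with the largest change per comparison. The fitting steps were tested on simulated data, with independent noise and 1 spread per probe set for all groups. No simulated array stood apart, so that test cannot show how such arrays change the calls. Deviations of same-numbered replicates from their group means correlated at -0.20 to 0.31 between MyoD and control P19 cells. With NeuroD2 in P19 cells they correlated at 0.05 to 0.19. In MEFs the values were 0.01 to 0.06 with MyoD and 0.02 to 0.10 under the NeuroD2 label. Differently numbered replicates were not compared, and no pairing was used.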

Additional observations from a re-analysis of the deposited data

Results flagged for a closer look

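These results differed between MEFs and P19 cells by a test of the difference itself (limma, contrast of contrasts, adjusted over all probe sets). For MyoD, the effect on Igf1 was larger in MEFs by 3.76 (1452014_a_at), 3.99 (1437401_at), 3.86 (1434413_at) and 3.44 (1419519_at). The effect on Igf2 was larger there by 3.32 (1448152_at, adjusted p = 0.00234) and 0.85 (1415931_at, adjusted p = 0.00173), that on Igfbp3 by 1.98 (1423062_at) and 1.83 (1458268_s_at), and that on Igfbp5 by 3.25 (1452114_s_at) and 3.04 (1422313_a_at). For Igfbp6 and for Igfbp7 (1423585_at) the effect in MEFs minus that in P19 cells was -2.13 (adjusted p = 7.32e-07) and -0.72 (adjusted p = 0.046). The other 2 Igfbp7 probe sets, the brightest among them, did not pass, and the 3 ran from -0.73 to 0.44. In P19 cells 1423585_at was dim, with means of 4.93 in the controls and 4.76 with MyoD. The difference for Igfbp7 therefore rests on this probe set alone.

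Between the NeuroD2 labels, the effect on Igf1 was larger in MEFs by 3.64, 3.84, 3.40 and 3.21 on the same 4 probe sets, and that on Igfbp5 by 5.09 (1452114_s_at) and 3.77 (1422313_a_at). For Igfbp4 the effect in MEFs minus that in P19 cells was -1.06 (1423757_x_at, adjusted p = 0.00183), -0.89 (1421992_a_at, adjusted p = 0.00931), -1.07 (1437406_x_at, adjusted p = 0.00119) and -0.79 (1421991_a_at, adjusted p = 0.0133), while the other 2 probe sets did not pass. The NeuroD2 groups of the 2 kinds of cell lie in different batches, and the Neurod2 signal rose in P19 cells alone.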

How the results depend on the processing

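For the 10 genes, 55 differences recomputed under 34 alternative settings gave 1829 values, of which 37 lost a call and 60 gained one without a change of sign. The sign differed from the original in 36, and in 6 of these the difference was called in one or both of the fits. The differences of Igf1 and Igfbp5 (1452114_s_at) in both MEF comparisons, of Igf2, Igfbp3, Igfbp6 and Igfbp7 in MEFs with MyoD, and of Igfbp4 and Igfbp5 in P19 cells with NeuroD2 kept direction and call in every alternative that held the probe set. For Igf1, Igfbp4 and Igfbp5 these were 33 of the 34. The setting that leaves out probe sets able to match several transcripts removed theirs, and no Igfbp4 or Igfbp5 probe set remained there. The Igfbp3 difference in P19 cells with MyoD lost its call in 23 alternatives and was -0.0018 against the controls of batch 3. The Igfbp3 difference in MEFs labelled NeuroD2 was 1.16 against the controls of batch 1. Igfbp5 (1422313_a_at) in P19 cells with MyoD was 0.59 with array weights, which gave P19 control replicate 2 of batch 1 a weight of 0.00, from -0.47 (without P19 control replicate 3 of batch 1) to 0.61 (without replicate 2) when 1 array was left out, and 0.61 without both P19 control arrays that stand apart, an alternative chosen after the data were seen. The last gave -0.39 for Igf1r in P19 cells with NeuroD2. The cause was not tested.

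Counts of called probe sets moved most, in the order P19 MyoD, MEF MyoD, P19 NeuroD2, MEF NeuroD2, kinds of cell, P19 batches, MEF batches, MyoD between cells, NeuroD2 between cells, factors in MEFs and factors in P19 cells. With 1 probe set for each of 10 genes, fewer by construction, the moved counts were 6, 3, 3, 9, 1, 2, 5, 2, 5 and 2, from the second on. With the 17 probe sets whose identifiers name 1 transcript they were 0 (limma, with 5 of 17 at an unadjusted p under 0.05), 3, 13, 1, 1, 3, 6 and 1 for P19 NeuroD2, MEF NeuroD2, kinds of cell, P19 batches, MEF batches, NeuroD2 between cells and the factors in MEFs and in P19 cells. With only the arrays compared they were 1, 23, 15 and 0 for P19 MyoD, MEF MyoD, MEF NeuroD2 and P19 batches (limma, the last with 0 of 28 at an unadjusted p under 0.05), and 3 for the factors in P19 cells. Array weights gave 6, 23, 20, 16, 19, 17 and 18 for P19 MyoD, MEF MyoD, MEF NeuroD2, MEF batches, both factors between cells and the factors in MEFs. The controls of the other batch gave 23 for MEF MyoD and 14 for MEF NeuroD2, and repeated quantile normalization 1 for P19 batches. Without both P19 control arrays the counts were 7, 18, 12 and 16 for P19 MyoD, MEF NeuroD2, MEF batches and NeuroD2 between cells. Calls over all 45037 probe sets grew there too, to 2170, 11086, 8924 and 10013 from 938, 4346, 1532 and 3603 with all arrays. For the other settings of this paragraph, calls over all probe sets are not set beside the counts. A moved count is therefore not read as particular to these genes. Leaving out 1 array at a time gave 1 to 7 for P19 MyoD, 1 to 8 for P19 batches and 2 to 9 for MEF batches. The first was 6 without P19 control replicate 1 of batch 1 or of batch 3, 7 without replicate 3 of batch 1 and 1 without P19 MyoD replicate 2. The second was 7, 1 and 8 without P19 control replicates 1, 2 and 3 of batch 1, and the third 2 and 3 without MEF control replicates 2 and 3 of batch 1.

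A replicate block within batch gave 0 for P19 batches (limma, with 6 of 28 at an unadjusted p under 0.05) and 3 for MEF batches, and ended the calls of Igfbp3 in P19 cells with MyoD (adjusted p = 0.077) and of Igfbp5 (1422313_a_at) between the kinds of cell (adjusted p = 0.0539). The arrays' spread, 3 per group, and signals near background limit what dim probe sets can show.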
